A study of Homo sapiens with 8 samples.

Results

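The spliceosome is the ribonucleoprotein machine that removes introns from pre-mRNA. The 53 genes described here encode its general parts, as opposed to the regulators that steer it, and were taken as a list of names. The rule used no measured value, but the list was drawn up with earlier results of these data known. They were found among the 62639 genes of the transcript table by matching each transcript identifier to GENCODE version 44. The table lists 473 transcripts of these genes, and 236 of them were counted in 1 or more of the libraries.

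RNA came from MOLM-13, a human acute myeloid leukemia cell line. One group of 4 libraries came from cells with a doxycycline (dox) inducible shRNA against PTBP1 (shPTBP1, genotype PTBP1 KD) and the other group of 4 from control cells, labelled shControl and called shSCR here after the scrambled shRNA that the methods name. All 8 libraries came from cells given dox for 9 days, and both lentiviral constructs also express mCherry. The methods name 1 shRNA per group, so differences between the transduced cells other than the knockdown cannot be told apart from it, and although the labels call the libraries biological replicates, they do not say that each came from its own transduction. PTBP1 binds pyrimidine-rich RNA and represses or activates exons, and many of its sites lie close to the 3′ splice sites that the U2AF proteins read.

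The libraries held 1528449 to 1613342 counts and 12322 to 12589 genes with a count. PTBP1, the targeted gene, had 10, 15, 13 and 23 counts in shPTBP1 replicates 1 to 4 and 65, 90, 64 and 78 counts in shSCR replicates 1 to 4. Its level fell by 2.26 on the log2 scale (SE 0.221, adjusted p = 7.18e-05), and the groups did not overlap. Of 10 myeloid markers, 9 had counts in every library, while SPI1 had 0 or 1 count. The 9 ranged from MEIS1, FLT3 and ITGAM with 1 to 5, 3 to 12 and 5 to 23 counts to LYZ with 402 to 668. Of 15 markers of T, B, erythroid, epithelial and fibroblast cells, 6 were at 0 in every library and 2, KRT8 with 2 to 12 counts and COL1A2 with 11 to 18, had counts in every library.

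Introns are removed by small nuclear ribonucleoproteins (snRNPs) that assemble on each intron anew. The U1 snRNP pairs with the 5′ splice site, SF1 and the U2AF proteins mark the branch point, the pyrimidine tract and the 3′ splice site, and the U2 snRNP then binds the branch point through its SF3 proteins. The U4/U6.U5 tri-snRNP joins, U4 is unwound and released, the Prp19 complex stabilizes the catalytic form, and DEAH helicases release the product and recycle the parts. Many spliceosomal genes also make RNA that carries a premature stop codon and is removed by nonsense-mediated decay.

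The sequences at the isoform choices described further on are given first, from the hg38 genome and 5′ to 3′ on the strand of the gene. Capitals are exon bases of the named transcript, except for SNRNP70, where they mark only the bases that differ. SNRPB makes the Sm proteins B and B′ by a choice between 3′ splice sites of its last exon. The site used by SNRPB-201 lies at chr20:2461932-2461989 (minus strand, intron end and coding part of the last exon), and the one used by SNRPB-202, 146 bases further along the gene, at chr20:2461779-2461808 (minus strand). The capitals are the first bases of each version of the last exon. The lower-case bases before SNRPB-202 are intron for that transcript but exon for SNRPB-201. Another annotated form, SNRPB-203, adds an exon of 124 bases that brings in a premature stop, and the coding 55 bases of that exon are shown with the intron before them (chr20:2467261-2467365, minus strand).
SNRPB-201 acceptor: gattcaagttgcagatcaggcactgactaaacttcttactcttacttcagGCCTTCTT
SNRPB-202 acceptor: tggtttcccttacagGGCCCCCTCCCCCGG
SNRPB-203 exon: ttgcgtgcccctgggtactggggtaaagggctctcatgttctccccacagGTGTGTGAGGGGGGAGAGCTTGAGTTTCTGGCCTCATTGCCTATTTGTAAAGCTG

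SNRNP70 encodes U1-70K, the U1 snRNP protein that holds the stem of U1 snRNA. Its transcripts SNRNP70-206 and SNRNP70-201 differ at the start of the last exon, where SNRNP70-206 holds 27 more coding bases (in capitals, chr19:49107745-49107841, plus strand). The 20 lower-case bases after the capitals are coding exon in both transcripts.
SNRNP70 last exon: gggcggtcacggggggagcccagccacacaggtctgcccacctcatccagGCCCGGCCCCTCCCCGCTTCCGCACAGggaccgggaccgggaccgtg

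U2AF1, the small U2AF subunit that reads the AG of the 3′ splice site, has a pair of exons of 67 bases each, of which a transcript holds one or the other: U2AF1-201 has the exon at chr21:43100441-43100531 and U2AF1-202 the one at chr21:43101354-43101444 (both minus strand, with intron bases in lower case). They are shown because both exons occur a second time in hg38, letter for letter, which bears on the counts of this gene.
U2AF1-201 exon: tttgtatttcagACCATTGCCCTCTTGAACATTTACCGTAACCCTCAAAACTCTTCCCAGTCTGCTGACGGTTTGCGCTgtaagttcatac
U2AF1-202 exon: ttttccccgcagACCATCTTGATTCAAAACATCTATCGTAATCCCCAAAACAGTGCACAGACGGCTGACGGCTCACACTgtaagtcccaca

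The letters of the 50 bases before each of these acceptors were compared with 150270 annotated acceptors, of which the median held 60% pyrimidines. For SNRPB-202 all 50 bases are exon of SNRPB-201. For SNRNP70-201, 27 of the 50 are exon of SNRNP70-206. The share of pyrimidines was 56% for SNRPB-201, 60% for SNRPB-202, 56% for SNRPB-203, 48% for SNRNP70-206, 66% for SNRNP70-201, 62% for U2AF1-201 and 66% for U2AF1-202. The letters TCTT, on the RNA strand only, occurred 2 times before SNRPB-201 and 0 times before the others, against 50.3% of all acceptors with at least 1. CTCTCT occurred in 0 of these tracts, against 6.52% of all acceptors. A match is a description of the letters and not of binding.

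The summed level of the core spliceosome genes differed little after PTBP1 KD, by an amount that depended on the scaling. Together they held 8565 ± 83.2 CPM (counts per 1000000 counts, scaled by TMM, a correction for library composition) in shPTBP1 and 8572 ± 271 in shSCR (SD, n = 4 each), a difference of -0.0814%. As a share of the unscaled library totals they held 0.834% ± 0.0109 in shPTBP1 and 0.857% ± 0.0113 in shSCR, a difference of -2.66%, and the groups overlapped only at shPTBP1 replicate 1 and shSCR replicate 2. Of the 53 genes, 51 passed the filter on low counts and were tested with edgeR's quasi-likelihood test. LSM2 and LSM7, of the LSm ring that binds U6 snRNA, rose, and PRPF6, of the tri-snRNP, and SF3B4, of the U2 snRNP, fell. These 4 of 51 genes were called at an adjusted p under 0.05, against 5.54% of all 7597 genes tested and 11.4% of the 1691 genes at or above the median level of the 51. All 4 changes were under 0.5 in size on the log2 scale.

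Over all genes, 242 were called lower and 179 higher, or 272 and 129 with limma-trend on the CPM values of the authors. By direction, 2 of the 51 were lower, against 3.19% of all genes, and 2 were higher, against 2.36%. The median log2 fold change of the 51 was 0.0019 and that of all genes tested was -0.00014. Of the 51, 25 were below 0 and 26 above. At an unadjusted p under 0.05 there were 8 of the 51, against 19.2% of all genes and 30.7% of those 1691. The libraries of both groups did not overlap for 3 of them (LSM2, LSM7 and PRPF6), against 12.7% of all genes and 21.7% of those 1691. The members' own shares were 7.84% called, 15.7% at an unadjusted p under 0.05 and 5.88% without overlap. In RNA from whole cultures, fewer cells of a type and less RNA per cell cannot be told apart.

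The precision of these values can be read from their intervals. For 42 of the 51 genes the whole 95% interval of the fold change lay within 0.5 on the log2 scale in either direction, which is a fold of 1.41. That was so for 41.9% of all genes tested and for 89.2% of the 1691 genes at or above the median level of the 51. The intervals that reached beyond it were those of SNRPA1, SNRPB2, ZRSR2, PRPF4, PRPF6, TXNL4A, PRPF19, AQR and DHX38, and that of PRPF6 did so from the size of its change, as it ran from -0.60 to -0.19. TXNL4A alone had a fold change over 0.5 in size, and its value rests on 1 transcript that is described further on.

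**Figure D1:**
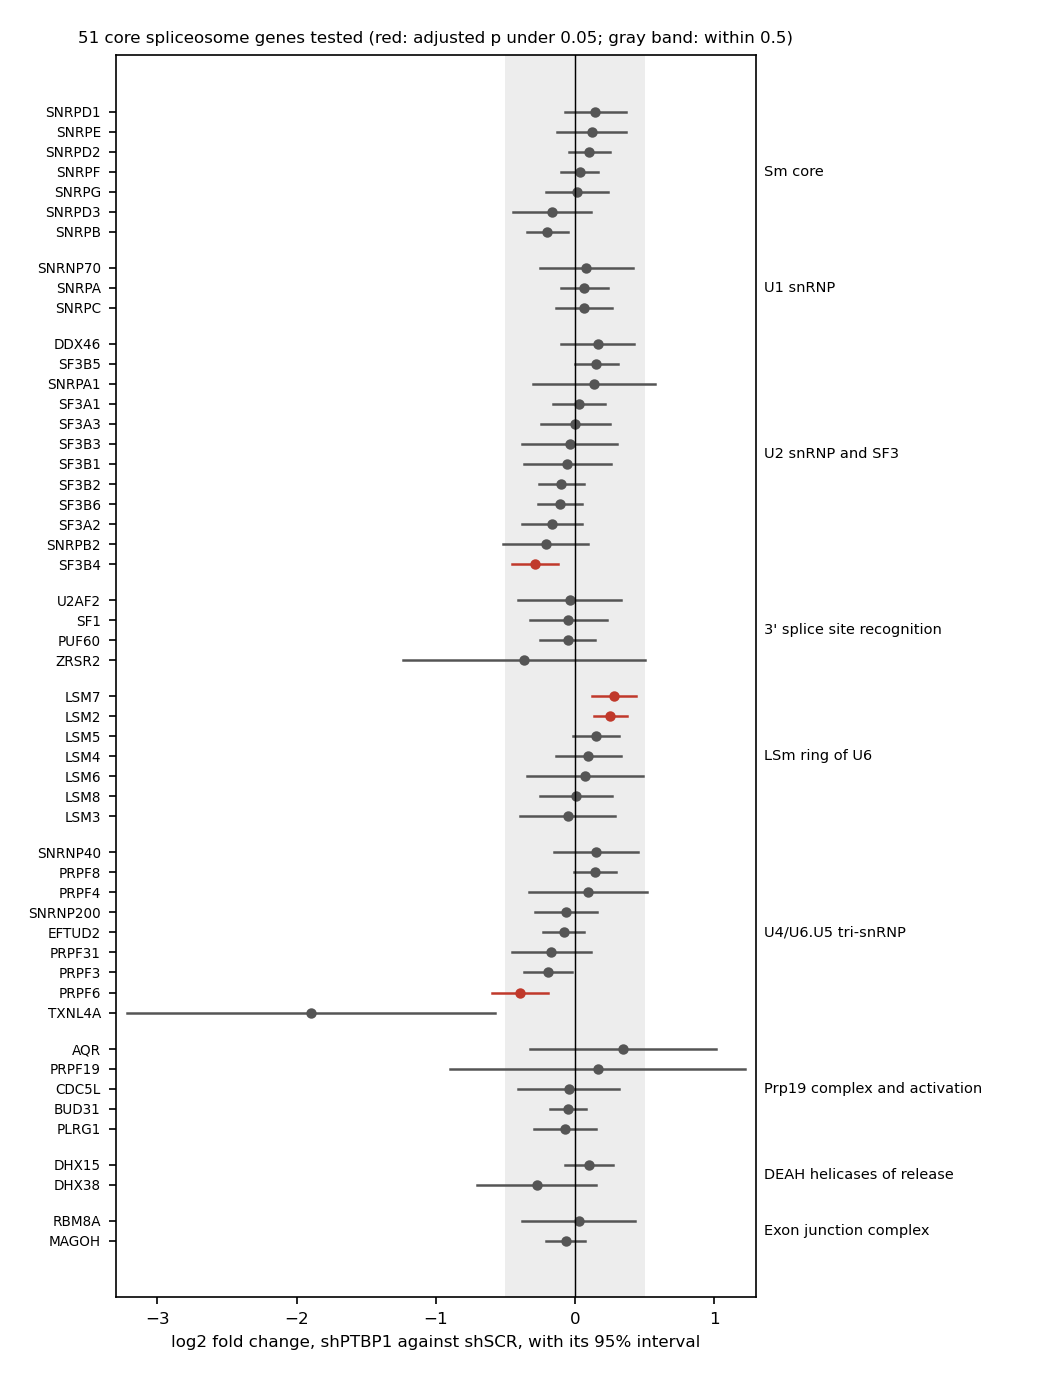
Log2 fold change of each of the 51 tested core spliceosome genes in shPTBP1 against shSCR, with its 95% interval, grouped by complex. The 4 called genes are red, 42 of the intervals lie inside the gray band of 0.5 in either direction, and TXNL4A lies apart at -1.90 with an interval from -3.22 to -0.58.

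The Sm proteins form the ring of 7 that every snRNP except U6 carries, and 7 of 7 genes were tested and 0 called. At an unadjusted p under 0.05 there was 1, SNRPB, and DESeq2 and limma-voom also called 0 of the Sm genes. Their summed level was 2056 ± 91.6 CPM in shPTBP1 and 2047 ± 126 in shSCR, a difference of 0.439%, which was -2.16% without TMM. The fold changes on the log2 scale ran from -0.20 for SNRPB to 0.15 for SNRPD1, with 0.12 for SNRPE, 0.10 for SNRPD2, 0.03 for SNRPF, 0.02 for SNRPG and -0.16 for SNRPD3. Per kb of transcript their levels ran from 1528 CPM for SNRPF to 12.3 for SNRPD3. This order depends on the scale, as a long read counts a molecule once whatever its length. Without division by length the means ran from 682 to 44.2 CPM in shSCR for the same genes, and SNRPE and SNRPD1, at 124.5 and 18.5 CPM per kb, had similar means of 91.0 and 84.5 CPM.

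SNRPB had 411.9, 453.2, 425.3 and 393.8 CPM in the shPTBP1 libraries and 443.1, 478.8, 514.8 and 495.3 CPM in the shSCR libraries. The groups overlapped, as shPTBP1 replicate 2 lay above shSCR replicate 1. The log2 fold change was -0.20 (SE 0.0673, adjusted p = 0.112), and the exact permutation test gave p = 0.0571, where 0.0286 is the smallest p that 4 against 4 libraries allow. The call depended on the test. SNRPB was called lower when genes were required to have a mean of 50 counts (adjusted p = 0.0354) and with limma-trend on the log2 of CPM plus 1 or 0.5 (0.0422 and 0.0434), and in none of the 14 other alternatives, whose adjusted p reached 0.272.

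The U1 snRNP proteins encoded by SNRNP70 (U1-70K), SNRPA and SNRPC help to recognize the 5′ splice site. Their genes had log2 fold changes of 0.08, 0.07 and 0.06, and 0 of 3 were called. None had an unadjusted p under 0.05, and DESeq2 called none. SNRNP70 had 81.0, 72.01, 46.1 and 63.4 CPM in shPTBP1 and 61.4, 65.6, 69.4 and 52.0 CPM in shSCR. Both the highest and the lowest library were shPTBP1 libraries, so that the groups overlapped throughout.

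The U2 snRNP binds the branch point. Of its 12 genes here 1 was lower, against 3.19% of all genes, and 0 were higher, against 2.36%. The summed level of the 12 was 2201 ± 51.9 CPM in shPTBP1 and 2296 ± 100.3 in shSCR with overlapping libraries. Without TMM the libraries did not overlap, at 2080 to 2175 and 2236 to 2374 CPM, and all 53 genes together differed by -2.66%. These sums include SF3B4, called lower (363.9 against 443.9 CPM after TMM), so they are no separate result. They were not tested. SF3B4 encodes an SF3b protein that contacts the pre-mRNA beside the branch point. It had 410.6, 350.2, 359.4 and 335.5 CPM in shPTBP1 and 398.8, 466.7, 459.5 and 450.4 CPM in shSCR. All shPTBP1 libraries except replicate 1 lay below all shSCR libraries. The level fell by 0.29 on the log2 scale (SE 0.0764, 95% interval -0.45 to -0.12, adjusted p = 0.0454), and the exact permutation p was 0.0571. The call was lost without shPTBP1 replicate 2, 3 or 4, or without shSCR replicate 2, 3 or 4, with adjusted p between 0.0995 and 0.138. It was also lost with limma-voom (0.0506) and with the replicate number as a block (0.0939).

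SF3B1, the largest SF3b protein, which clamps the branch point and is often mutated in myeloid neoplasms, had 53.8, 37.0, 42.8 and 37.8 CPM in shPTBP1 and 52.8, 40.1, 42.0 and 43.0 CPM in shSCR. In each group replicate 1 was the highest library, and the log2 fold change was -0.05 (95% interval -0.37 to 0.26). SF3B5 and SF3B6, small SF3b subunits, were the most abundant of the U2 genes per kb, with 663 and 1118 CPM per kb. SF3B5 had a log2 fold change of 0.15 and an interval that just excluded 0 (0.00025 to 0.31), but an adjusted p of 0.259. The other U2 genes lay between -0.21 for SNRPB2, which encodes U2B″, and 0.16 for DDX46, the helicase that prepares U2 for the branch point.

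The factors that mark the 3′ splice site had 4 of 5 genes tested and 0 called, with 0 at an unadjusted p under 0.05 and 0 called by DESeq2. U2AF2, the large U2AF subunit that binds the pyrimidine tract, had 27.8, 26.4, 25.7 and 32.0 CPM in shPTBP1 and 25.8, 33.7, 22.0 and 33.4 CPM in shSCR. SF1, which binds the branch point first, had 97.4, 86.5, 101.4 and 85.8 CPM in shPTBP1 and 76.2, 121.6, 98.0 and 87.9 CPM in shSCR. For both genes the shPTBP1 libraries lay within the range of the shSCR libraries, and the log2 fold changes were -0.04 and -0.05. ZRSR2, which serves the minor spliceosome, was low, with 3.80, 5.29, 4.61 and 11.5 CPM in shPTBP1 and 6.76, 12.7, 5.33 and 7.70 CPM in shSCR. Its log2 fold change of -0.36 had an interval from -1.23 to 0.51, so that a fall or a rise of the size of that of PRPF6 would not have been detectable at this depth. PUF60, a relative of U2AF2, had a log2 fold change of -0.05.

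U2AF1 had 0 counts in all 8 libraries on all 11 of its listed transcripts. A count of 0 allows up to 3 counts per library from counting error alone. The gene lies at chr21:43092956-43107570, and 8 of 10 distinct exons of U2AF1-201 and U2AF1-202 occur a second time on chr21, between 6484623 and 6499248. The 2 not found again are both versions of the first exon. RefSeq lists LOC102724594 (U2AF1L5) at that second place, and GENCODE version 44 has no gene of that name. A read that fits both places equally well gets a low mapping quality, and the authors kept alignments with a mapping quality above 50. The part of this in the 0 counts was not tested, and the 0 is therefore no measurement of U2AF1 expression. For comparison, the shares of 100-base windows of the main transcript that occur elsewhere in hg38 were 29.0% for U2AF1-201, 27.0% for RBM8A-204, 26.4% for SNRPA1-201, 25.9% for SNRPE-204, 18.0% for SNRPG-201 and 6.52% for ZRSR2-201, and at most 1.05% for the other members. The counts of the genes named here may be incomplete. A window that crosses an exon junction cannot match a copy that keeps its introns. The share for U2AF1-201 therefore understates how much of it occurs again, and low shares for other members say nothing on copies of that kind.

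The LSm proteins LSM2 to LSM8 form the ring that binds the 3′ end of U6 snRNA, and LSM2 to LSM7 also serve, with LSM1, in the cytoplasmic ring that promotes mRNA decapping. Of their 7 genes 2 were called higher, against 2.36% of all genes, and 0 lower, against 3.19%. Of the 1691 genes at or above the median level of the 51, 11.4% were called in either direction. The summed level of the ring was 1299, 1383, 1403 and 1419 CPM in shPTBP1 and 1207, 1138, 1198 and 1253 CPM in shSCR. All shPTBP1 libraries lay above all shSCR libraries, with means of 1376 ± 53.5 and 1199 ± 47.1 CPM and a difference of 14.7%, or 11.7% without TMM. The median over the 7 genes of the level relative to shSCR was 7.76% higher, and LSM2, LSM5 and LSM7 contributed most of the summed counts.

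LSM2 had 468.8, 461.8, 460.8 and 472.5 CPM in shPTBP1 and 377.3, 387.1, 399.4 and 401.0 CPM in shSCR. The libraries of each group lay within a narrow range and the groups were far apart, with means of 466 ± 5.62 and 391 ± 11.2 CPM. The log2 fold change was 0.25 (SE 0.0551, 95% interval 0.13 to 0.37, adjusted p = 0.0191), a rise of 19.1%, and the exact permutation p was 0.0286, the smallest possible. LSM2 was called in 9 of 9 alternatives that kept all libraries. Without shPTBP1 replicate 2, 3 or 4 or shSCR replicate 1 the adjusted p lay between 0.0501 and 0.0566.

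LSM7 had 319.5, 383.8, 339.7 and 371.3 CPM in shPTBP1 and 293.1, 270.0, 294.1 and 308.6 CPM in shSCR. Again the groups did not overlap, although shPTBP1 replicate 1 was close to shSCR replicate 4. The log2 fold change was 0.28 (SE 0.0736, 95% interval 0.12 to 0.44, adjusted p = 0.0435), a rise of 21.3%, with an exact permutation p of 0.0286. The call was kept only without shPTBP1 replicate 1, and was lost when any of the 7 other libraries was left out (adjusted p 0.0638 to 0.133). It was also lost with limma-voom (0.0506), limma-trend (0.0541 and 0.0561) and the block (0.0725).

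LSM5 followed with a log2 fold change of 0.15 (adjusted p = 0.308), and LSM4, LSM6, LSM8 and LSM3 had 0.10, 0.07, 0.0048 and -0.05. LSM2 and LSM7 make short RNA, and short genes stood slightly above the others in all of the data. The median log2 fold change of the 11 tested members with a mean transcript length under 1000 bases was 0.10, and 2 of them were below 0. Over all 763 tested genes of that length the median was 0.05, against -0.0076 for the 2865 genes of 1000 to 2500 bases and -0.013 for the 3969 longer ones. The part of transcript length in these changes was not tested.

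**Figure D2:**
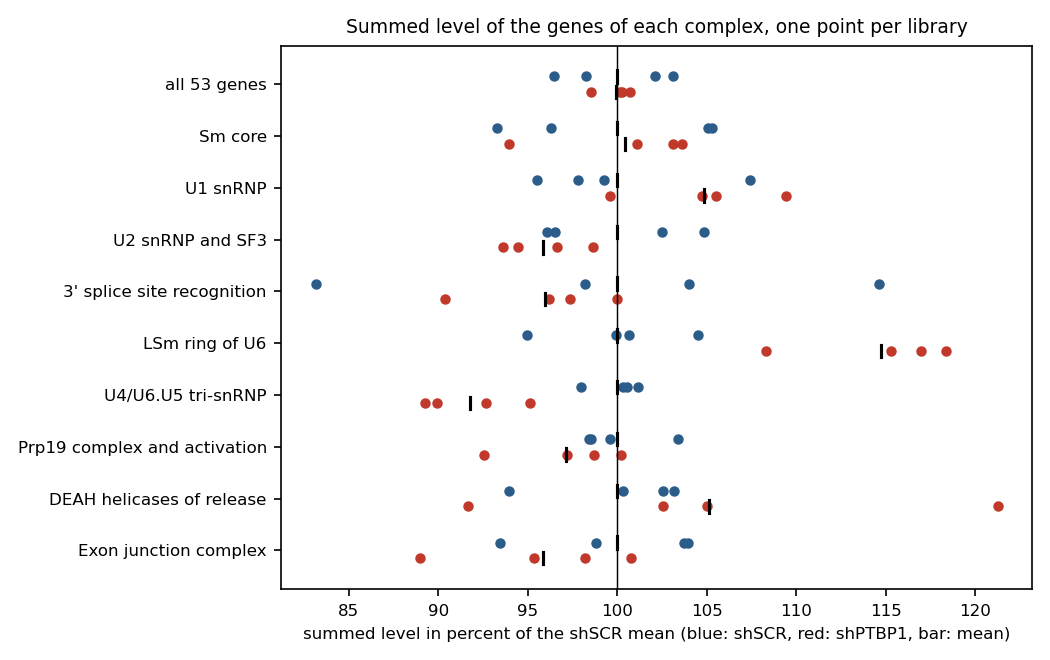
Summed level of the genes of each complex in every library, in percent of the shSCR mean (blue shSCR, red shPTBP1, bars at the means). The LSm ring is 14.7% higher and the tri-snRNP differs by -8.24%, both with no overlap of the libraries, while the sum of all 53 genes differs by -0.0814% after TMM, as plotted, and by -2.66% without it. The sums include the called genes LSM2 and LSM7 (LSm ring), PRPF6 (tri-snRNP) and SF3B4 (U2 snRNP), so they are no separate result. They were not tested.

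The tri-snRNP brings U4, U5 and U6 to the intron. Of its 9 genes 1 was lower, against 3.19% of all genes, and 0 were higher, against 2.36%. The summed level was 1087, 1020, 1059 and 1028 CPM in shPTBP1 and 1148, 1146, 1120 and 1156 CPM in shSCR, a difference of -8.24% without overlap, or -10.6% without TMM. The largest falls in mean level were those of PRPF6, PRPF3 (173.0 against 197.7 CPM) and TXNL4A (6.35 against 23.7 CPM). The values of PRPF3 and TXNL4A include transcripts present in only some libraries of a group. Of the 9 genes, 6 had log2 fold changes below 0 and 3 above, with a median of -0.08, and the sum was not tested. PRPF6, the protein that bridges U5 and U4/U6, had 168.3, 137.4, 160.6 and 121.6 CPM in shPTBP1 and 194.8, 197.4, 187.4 and 193.1 CPM in shSCR. The shSCR libraries lay close together and all shPTBP1 libraries were below them but spread widely (147 ± 21.4 against 193 ± 4.24 CPM). PRPF6 fell by 0.39 on the log2 scale (SE 0.0941, 95% interval -0.60 to -0.19, adjusted p = 0.0284), or by 23.9%, with an exact permutation p of 0.0286. It was called in 9 of 9 alternatives that kept all libraries, and the call was lost without shPTBP1 replicate 2 or 4 or any 1 of the shSCR libraries (adjusted p 0.0530 to 0.0901).

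PRPF8, the scaffold of the catalytic core, leaned the other way, with 194.2, 177.1, 198.2 and 184.4 CPM in shPTBP1 and 171.4, 179.6, 169.4 and 161.7 CPM in shSCR. Only shSCR replicate 2 reached into the shPTBP1 range, but the log2 fold change of 0.14 was not called (95% interval -0.01 to 0.29, adjusted p = 0.280). The U4/U6 proteins PRPF3, PRPF4 and PRPF31 had log2 fold changes of -0.19, 0.09 and -0.17. SNRNP200, the helicase that unwinds U4 from U6, had -0.06, the GTPase EFTUD2 -0.08 and the U5 protein SNRNP40 0.15.

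TXNL4A, a small U5 protein, had the largest fold change of the 51 and was not called. Its counts were 6, 18, 6 and 9 in shPTBP1 and 19, 55, 5 and 70 in shSCR, and the groups overlapped. The log2 fold change was -1.90 (SE 0.613, adjusted p = 0.0975), and the exact permutation p was 0.257. The 2 high shSCR libraries came from a single transcript, TXNL4A-208, with 37 and 66 counts in shSCR replicates 2 and 4 and 0 in the 6 other libraries. Without it the gene had 6, 18, 6 and 9 counts against 19, 18, 5 and 4. TXNL4A was called lower without a filter on low counts (adjusted p = 0.00515), with the replicate number as a block (0.0278) and without shSCR replicate 3 (0.0210), and in 0 of the 11 other alternatives that gave an adjusted p, where it reached 0.368.

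**Figure D3:**
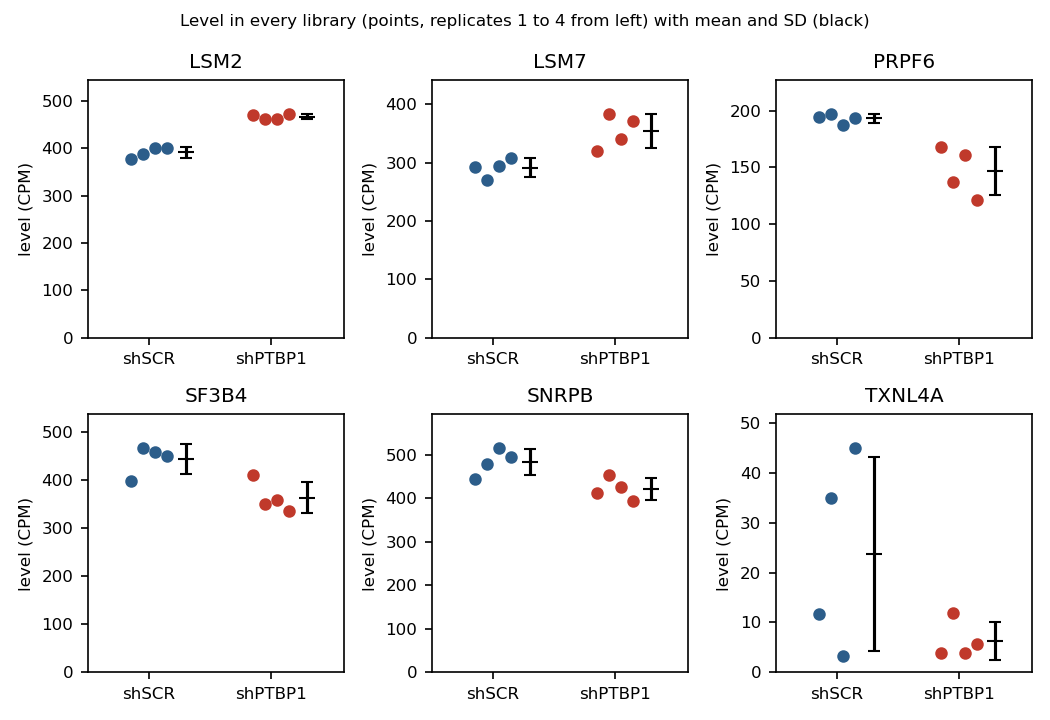
Level in CPM of the 4 called genes and of SNRPB and TXNL4A in every library, with the mean and SD of each group beside the points. LSM2, LSM7 and PRPF6 show groups that do not overlap, SF3B4 and SNRPB overlap by 1 library, and the TXNL4A libraries of shSCR spread from 3.33 to 44.9 CPM.

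The Prp19 complex and its partners, which fix the active form of the spliceosome, had 5 of 6 genes tested and 0 called, with 0 at an unadjusted p under 0.05 and 0 called by DESeq2. AQR, the helicase that binds the intron upstream of the branch point, had 6.96, 7.27, 9.87 and 10.9 CPM in shPTBP1 and 9.22, 7.64, 6.0 and 4.49 CPM in shSCR. It was the lowest member per kb with a tested value (0.943 CPM per kb), and its log2 fold change of 0.35 had an interval from -0.32 to 1.02. CDC5L, PLRG1 and BUD31 had log2 fold changes of -0.04, -0.07 and -0.05. CRNKL1 did not pass the filter, with 7, 8, 0 and 0 counts in shPTBP1 and 13, 0, 0 and 11 in shSCR. Such counts allow no statement on a change.

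DHX38, the helicase that acts between the splicing steps, had 23.4, 18.5, 24.4 and 28.2 CPM in shPTBP1 and 34.4, 19.7, 27.3 and 32.7 CPM in shSCR. The groups overlapped (log2 fold change -0.27, 95% interval -0.70 to 0.15). DHX15, which takes the spent spliceosome apart, had a log2 fold change of 0.10. Of the exon junction complex, the mark left on spliced mRNA, MAGOH had 292.3, 277.5, 303.5 and 304.8 CPM in shPTBP1 and 323.2, 289.1, 321.4 and 300.9 CPM in shSCR, a log2 fold change of -0.07 (95% interval -0.21 to 0.07). Its partner RBM8A had 0.03.

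Isoform usage was then compared, as the share that each transcript took of the counts of its gene. Usage was tested for 60 transcripts of 24 members with diffSpliceDGE of edgeR, and 0 were called, against 1.12% of all 5464 transcripts tested. At an unadjusted p under 0.05 there were 0 of the 60, against 6.59% of all. With limma's diffSplice 0 were called, against 2.84% of all, and 4 had an unadjusted p under 0.05, against 15.7% of all. The median difference of the mean shares was 1.61 percentage points in size, and 1.71 over all transcripts tested. For 55 of the 60 the difference was under 5 points, and the largest was 8.46 points (LSM6-201, with 16 to 23 counts per library). In 20 of the 52 members with a count, 1 transcript held over 90% of the counts.

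The choice of the last exon of SNRPB did not differ beyond the spread between libraries. SNRPB-201, with a coding length of 693 bases, held 59.6, 55.8, 61.1 and 61.5% of the SNRPB counts in shPTBP1 and 58.1, 56.4, 59.6 and 57.8% in shSCR. The groups overlapped, with means of 59.5% ± 2.58 and 58.0% ± 1.32. SNRPB-202, with 720 coding bases, held 39.7% ± 2.56 and 41.4% ± 1.56. The transcript with the premature stop, SNRPB-203, had 4, 6, 4 and 6 counts in shPTBP1 and 7, 2, 4 and 3 in shSCR, so a difference of a few counts would not be detectable at this depth.

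For SNRNP70, the longer last exon printed above was used by 68.8, 69.7, 74.3 and 63.6% of the counts in shPTBP1 and 72, 71.8, 74.0 and 75.3% in shSCR (SNRNP70-206). The shPTBP1 libraries spread over a wider range that held most shSCR libraries. The mean share was 4.20 points lower (adjusted p = 1.000 with diffSpliceDGE), and that of SNRNP70-201 was 4.72 points higher, on 15 to 31 counts per library.

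For LSM7, called higher as a gene, no change of usage was called. LSM7-203, named after its values were seen, held 20.2, 20.7, 21.9 and 23.1% of its counts in shPTBP1 and 25.6, 23.8, 23.4 and 25.6% in shSCR. The means were 21.5% ± 1.31 and 24.6% ± 1.16, and diffSpliceDGE gave an adjusted p of 1.000. In counts, LSM7-201 had 387 to 447 in shPTBP1 and 303 to 347 in shSCR, while LSM7-203 had 102 to 134 and 101 to 123. SF1-216 had the smallest p of the 60 by diffSpliceDGE (adjusted p = 0.778), with 8.14% ± 2.52 of the SF1 counts in shPTBP1 and 4.54% ± 1.95 in shSCR, on 3 to 14 counts per library. PUF60-202 and PUF60-208, which have 11 and 12 exons, changed places in order (37.3% ± 5.46 and 43.4% ± 6.35 in shPTBP1, 43.8% ± 1.37 and 37.3% ± 1.74 in shSCR), but shPTBP1 replicates 1 and 3 lay near the shSCR values and the test gave adjusted p of 1.000 for both.

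**Figure D4:**
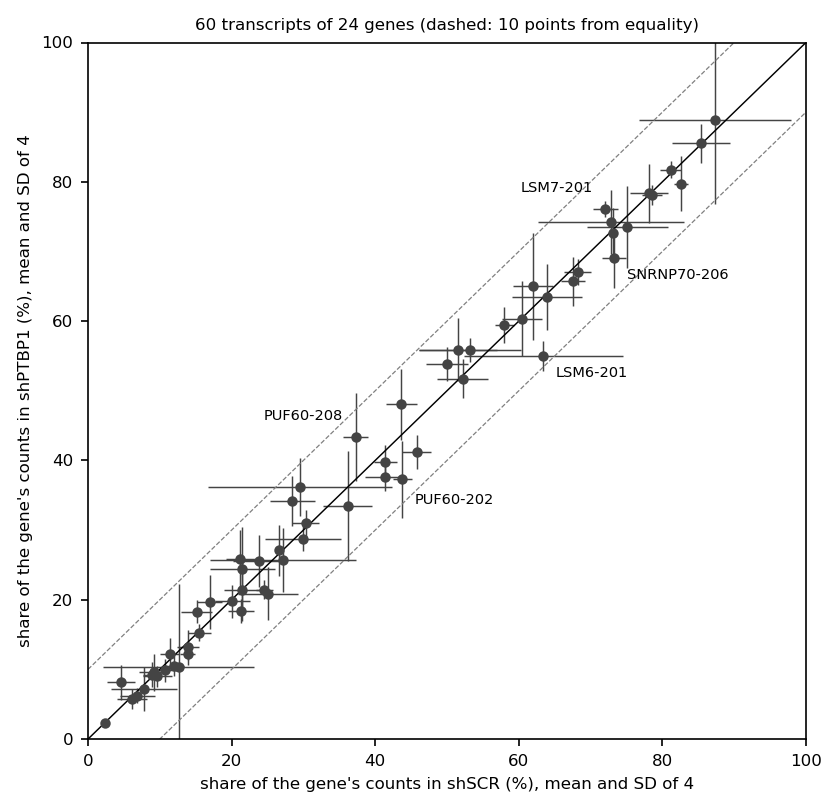
Mean share of the gene's counts for each of the 60 tested transcripts in shSCR (x axis) and shPTBP1 (y axis), with SD bars over 4 libraries. All points lie within the dashed lines 10 percentage points from equality, and LSM6-201 lies farthest from the diagonal with 8.46 points.

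In some members a short or noncoding transcript held a large share of the counts in both groups. SNRNP200-208, annotated as retaining an intron and with 15 exons of 2666 bases, held 67.0% ± 1.87 of the SNRNP200 counts in shPTBP1 and 68.2% ± 1.89 in shSCR, and the full-length SNRNP200-201 with 45 exons held 31.0% ± 1.96 and 30.3% ± 1.90. SF3B2-210, with 9 exons, held 55.8% ± 1.71 and 53.2% ± 7.12. PLRG1-207, annotated as a target of nonsense-mediated decay, held 25.6% ± 3.73 and 23.8% ± 3.67. SNRPE-204, which has no defined coding region, held 53.8% ± 2.43 and 49.98% ± 2.95. The order of these isoforms was the same in both groups.

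Over the 51 members that passed the filter, the share of counts on transcripts not annotated as protein coding was 3.28, 3.29, 3.87 and 3.91% in shPTBP1, with a mean of 3.59% ± 0.351, and 3.68% ± 0.467 in shSCR. Decay-annotated transcripts held 0.609% ± 0.0413 and 0.636% ± 0.112, and transcripts with a retained intron 1.47% ± 0.0649 and 1.54% ± 0.210. In each class the difference was smaller than the SD of the shSCR libraries. These shares are a description over the list, with no test. For single genes the isoform test above found none. A transcript that is quickly degraded is counted at its remaining level only.

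A few transcripts were present in some libraries and absent from others of the same group, a pattern chosen for description after its values were seen. Of the 78 member transcripts that reached 20 counts in a library, 4 were at 0 in 1 library and at 20 or more in another of the same group (5.13%, against 4.06% of 8891 transcripts over all genes). PRPF19-202 had 43, 39, 0 and 33 counts in shPTBP1 and 0, 0, 43 and 40 in shSCR. The rest of PRPF19, the ubiquitin ligase of its complex, had 6 to 17 counts per library, so that most of the gene's level comes and goes with this 1 transcript. PRPF3-204 had 0, 0, 64 and 54 counts in shPTBP1 and 64, 26, 0 and 72 in shSCR, and BUD31-205 had 53 and 35 counts in shSCR replicates 1 and 2 and 0 in the other libraries. The fourth was TXNL4A-208. Neither PRPF19 nor TXNL4A passed the filter once such transcripts were left out, and the log2 fold change of BUD31 moved from -0.05 to 0.01 and that of PRPF3 from -0.19 to -0.16. The 4 called genes remained called without such transcripts, and the source of the pattern was not tested.

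**Figure D5:**
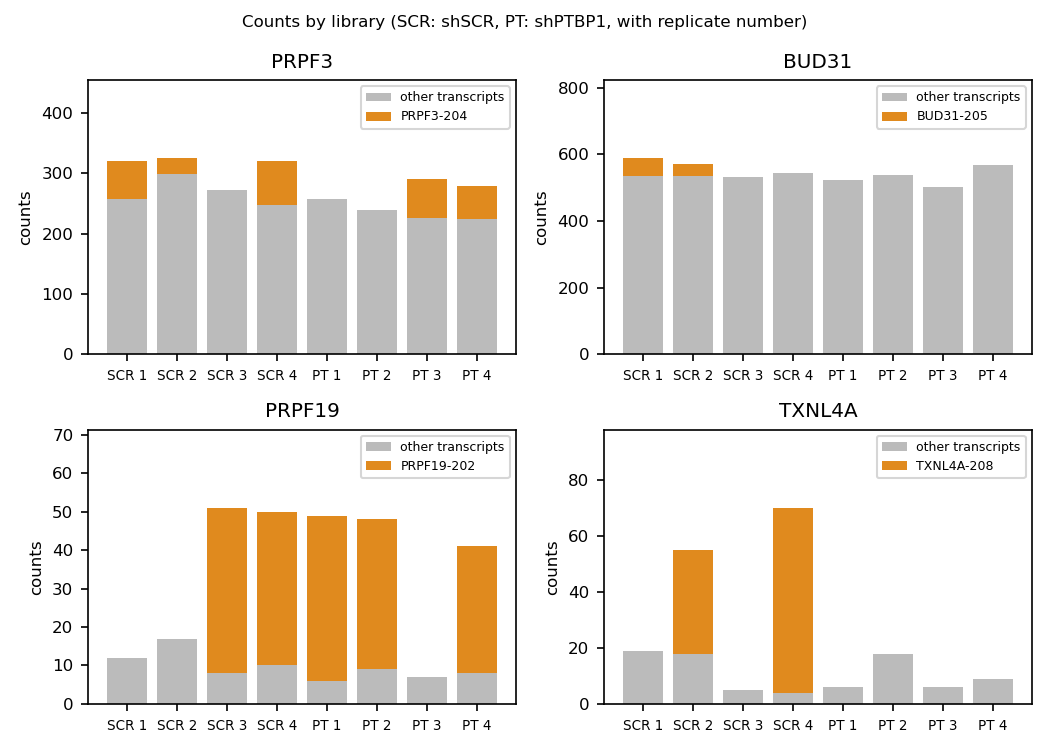
Counts by library of the 4 genes with a transcript that is present in some and absent from other libraries of a group (orange) and of their other transcripts (gray). PRPF19 and TXNL4A lie at 4 to 19 counts where the orange transcript is left out, and BUD31 at 503 to 569.

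Other lists put these values beside the rest of the machinery. Of 90 other spliceosomal genes, 81 were tested and 2.47% were called, against 5.54% of all genes: 2 were lower and 0 higher. They were ZMAT2, which leaves the spliceosome when it is activated (66.2 ± 4.86 CPM in shPTBP1 against 89.3 ± 7.78 in shSCR, a log2 fold change of -0.43 with SE 0.0982 and adjusted p = 0.0234), and DDX23, the helicase of the U5 snRNP that helps the tri-snRNP replace U1 (84.2 ± 5.70 against 111.6 ± 12.4 CPM, -0.41 with SE 0.0976 and adjusted p = 0.0295). For both the groups did not overlap, as for 7.41% of the 81 and 12.7% of all genes. DESeq2 did not call them (0.0642 and 0.0602), and the calls were lost in 6 and 5 of the 8 fits without 1 library, with adjusted p up to 0.0779 and 0.0961. ZMAT2 kept its call without shPTBP1 replicate 3 or shSCR replicate 2, and DDX23 without shPTBP1 replicate 1 or shSCR replicate 2 or 4. Of 18 genes of snRNP assembly, 13 were tested and 0 called, with 5 at an unadjusted p under 0.05 (38.5%, against 19.2% of all genes) and 0 called by limma-voom. DESeq2 called 1 of them, STRAP of the SMN complex, higher (adjusted p = 0.0315 with DESeq2 and 0.088 with edgeR, log2 fold change 0.17). Among 98 tested transcripts of 37 genes of both lists, 1 was called, against 1.12% of all transcripts tested: RNPS1-220, of the exon junction protein RNPS1, held 30.1% ± 2.39 of its gene's counts in shPTBP1 and 44.7% ± 4.49 in shSCR (adjusted p = 0.00358).

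Gene models that overlap limit some of these counts. Exons of 16 of the 53 members share bases with another annotated gene that had counts, mostly on the opposite strand, and whether the counting used the strand is not given in the sources used here. None of the 4 called genes is among them.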

How the data were processed

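The authors prepared nanopore cDNA libraries from total RNA, aligned the reads to hg38 with minimap2, kept alignments with a mapping quality above 50, and counted annotated transcripts with StringTie. Versions and the annotation are not given in the sources used here. The deposited counts are whole numbers per transcript without normalization. The deposited CPM table, which is named TPM, holds each count divided by the authors' library total, with no division by length.

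Transcripts were matched to GENCODE version 44 on hg38, which held 252562 of 254070; the 1508 others entered no gene. Gene sums were tested with edgeR 4.0.16 (TMM, filterByExpr with a minimum count of 10, quasi-likelihood test, group as the only term, Benjamini-Hochberg over all 7597 genes, call at an adjusted p under 0.05). The SE is the log2 fold change over the root of F. Isoform usage was tested with diffSpliceDGE (adjusted p under 0.05 and a share change of at least 10 points). Single values had two-sided exact permutation tests. Levels are CPM after TMM.

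Between libraries of a group, squared count differences exceeded counting error 2.03- to 3.74-fold, and none is a copy of another. Limits for a count of 0 reflect counting error alone, since copies of a cDNA made by PCR are not separate molecules. Same-numbered libraries did not deviate together (correlations -0.0328 to 0.00889), so the numbers were not taken as pairs.

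The members, their complexes, the other lists and the tests were chosen with earlier results of these data known. Values in every library are given for called members, for the member with the largest change in each complex, for members that did not pass the filter, and for SF3B1, U2AF1, U2AF2, ZRSR2, SF1, SNRNP70, SNRPB and PRPF8. PRPF3, PRPF19, BUD31 and the isoforms described were named after their values were seen. Alternatives were DESeq2 1.42.0, limma 3.58.1 (voom, and trend on log2 CPM plus 1 or 0.5), DESeq2's size factors, other filters, a replicate block, limma's diffSplice, other share limits and leaving out each library. Copies were searched in hg38 without its alternate contigs. The scripts were tested on simulated counts. R 4.3.3 and Python 3.11.15 were used.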

Additional observations from a re-analysis of the deposited data

Results flagged for a closer look

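Dixon's test for a sample far from the others was applied to 88 groups of 4 libraries over the levels and shares given above, and chance marks about 1 in 20 groups. One group was marked. The share of LSM5-208, a transcript of the LSm ring gene LSM5, was 15.8% in shPTBP1 replicate 3 and 18.9 to 19.3% in the other shPTBP1 libraries. In the shSCR libraries the mean share was 15.1% ± 2.15, and its usage was not called (adjusted p = 0.952).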

How the results depend on the processing

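The counts of called members were small and moved with the processing. In place of 2 lower and 2 higher genes, limma-voom gave 1 and 1, and limma-trend with either pseudocount gave 3 lower and 1 higher. The lower count was also 3 without a filter and with a mean of at least 50 counts. Leaving out 1 library gave 0 to 2 lower and 0 to 2 higher, with fewer samples in each fit. Over all genes, 242 lower and 179 higher became 107 to 190 and 77 to 168 in those fits. With the replicate number as a block, 2 were lower (PRPF6 and TXNL4A) and 1 was higher (LSM2), 0 isoforms were called, and over all genes 186 were lower and 137 higher. The adjusted p ranged over 17 alternatives from 0.00244 to 0.0566 for LSM2, 0.0215 to 0.133 for LSM7, 0.00905 to 0.0901 for PRPF6, 0.0167 to 0.138 for SF3B4 and 0.0354 to 0.272 for SNRPB. No direction of a called gene turned.

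In 0 of the alternatives was an isoform of a member called. Over all transcripts, calls went from 61 to 155 with limma's diffSplice and to 28 with a limit of 20 points. The difference of the summed level, -0.0814% after TMM, was -2.66% on library totals without TMM (an alternative added after the data were seen), where that of the tri-snRNP was -10.6%. After TMM it stayed between -1.25% and 0.976%, and that of the noncoding share between -0.254 and 0.113 points, without 1 library. Taken as medians over genes, the LSm ring stood 7.76% higher and the DEAH helicases -5.06%, where the sum of DHX15 and DHX38 was 5.14% higher. Leaving out transcripts present or absent within a group, chosen after the data were seen, gave 2 lower and 2 higher members. Depth limits the members at few counts, ZRSR2, AQR, CRNKL1 and TXNL4A, and isoforms under about 20 counts per library.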
